A study of Mus musculus with 9 samples.

Results

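The clock output transcription factors examined here are 8 genes, Dbp, Tef, Hlf, Nfil3, Bhlhe40, Bhlhe41, Ciart and Rora, taken by symbol from a table of 49671 mouse genes. All 8 were found, each as 1 row, and all 8 passed the filter on low counts that kept 18435 genes for testing. The libraries were made from sorted mouse skin cells of 2 Flg genotypes, 5 wt/wt and 4 ko/ko. Filaggrin, the product of Flg, is a barrier protein of the outermost skin layer, and the question of the study was what its deficiency does to gene expression in keratinocytes. Both groups were sorted in the same way, as cells without the leukocyte protein CD45 and with CD49f, the integrin alpha-6 chain of basal keratinocytes. The labels used here give no strain, age, sex, origin of the allele or time of day of collection, and they do not say that samples with separate identifiers came from separate animals. If they did not, p-values measure a spread that may be technical.

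The circadian clock of mammalian cells is a transcriptional loop in which the CLOCK and BMAL1 proteins act through E-boxes and are opposed by their own products, the PER and CRY proteins. The genes described here pass that rhythm on or bend it. Dbp, Tef and Hlf encode the PAR bZIP activators, named for a region rich in proline and acidic residues, which bind the D-box element. Nfil3 encodes E4BP4, a bZIP repressor of the same element. Bhlhe40 and Bhlhe41 encode DEC1 and DEC2, repressors that bind E-boxes, and Ciart encodes CHRONO, a repressor of CLOCK-BMAL1. Rora encodes a nuclear receptor that activates Arntl, the gene of BMAL1. In skin, clock genes cycle in keratinocytes, hair follicle cells and fibroblasts, and Bhlhe40 and Nfil3 also respond to cytokines and stress.

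The promoters of several of these genes held short sequence matches to the E-box or to other elements. Binding to these matches was not measured. The promoters are shown because Ciart and Hlf had the largest genotype differences of the 8. Promoter sequences covering 250 bases before to 50 bases after the RefSeq transcription start (GRCm38.p6, the mm10 build) were matched by symbol for 7 of the 8 genes, all but Bhlhe40, with Tef having 2 entries. The motifs searched on both strands were the E-box CACGTG, the D-box as TTATGTAA or TTACGTAA, the hexamer AGGTCA bound by ROR receptors, and the cyclic AMP response element TGACGTCA, and none of the matches found overlapped another. The Ciart promoter held 3 E-boxes, 116, 58 and 44 bases before the start. Among all 32851 promoters of the same length, 7.15% held at least 1 such E-box and 29 promoters, or 0.0883%, held 3 or more. The Ciart sequence is on the minus strand at chr3:95882179-95882478, with the E-boxes in capitals.
Ciart promoter: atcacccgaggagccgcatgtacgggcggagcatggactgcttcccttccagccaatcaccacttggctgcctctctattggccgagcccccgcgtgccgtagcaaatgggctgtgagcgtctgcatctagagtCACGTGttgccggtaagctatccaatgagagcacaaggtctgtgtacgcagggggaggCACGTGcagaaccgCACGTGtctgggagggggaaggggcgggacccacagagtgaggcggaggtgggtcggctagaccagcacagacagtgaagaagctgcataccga

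Hlf has a cyclic AMP response element beginning 9 bases before the RefSeq start, an element found in 1.79% of all promoters. The end of the sequence printed below was found whole in 0 GENCODE transcripts. On the minus strand the counted gene span starts at 90390895, inside that sequence, so by this start too the element lies upstream of Hlf. Its sequence is on the minus strand at chr11:90390868-90391167, with that element in capitals.
Hlf promoter: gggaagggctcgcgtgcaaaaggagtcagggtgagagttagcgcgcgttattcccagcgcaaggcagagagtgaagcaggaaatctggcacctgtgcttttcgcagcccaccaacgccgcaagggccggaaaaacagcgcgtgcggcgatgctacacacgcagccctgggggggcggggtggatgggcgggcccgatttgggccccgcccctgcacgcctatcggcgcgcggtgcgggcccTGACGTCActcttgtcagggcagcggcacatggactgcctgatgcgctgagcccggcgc

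Both Tef promoters and the Bhlhe41 promoter held 1 E-box each, and the Nfil3 promoter held 1 AGGTCA hexamer on the opposite strand, an element found in 16.3% of promoters. The E-boxes lay 127 and 138 bases before the Tef starts and 153 bases before that of Bhlhe41, and the hexamer lay 12 bases before that of Nfil3. These distances are from RefSeq starts. By the gene spans of the counts, given below, both Tef E-boxes and the Nfil3 hexamer lie inside the counted gene. They are printed with 18 bases on each side and the element in capitals, at chr15:81802528-81802569 and chr15:81811258-81811299 on the plus strand for Tef, and at chr6:145865550-145865591 and chr13:52981028-52981069 on the minus strand for Bhlhe41 and Nfil3.
Tef E-box, upstream start: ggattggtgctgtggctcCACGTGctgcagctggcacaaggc
Tef E-box, downstream start: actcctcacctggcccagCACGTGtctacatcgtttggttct
Bhlhe41 E-box: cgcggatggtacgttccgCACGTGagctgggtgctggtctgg
Nfil3 hexamer: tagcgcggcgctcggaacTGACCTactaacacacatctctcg

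By gene, 3 of the 7 with an entry held an E-box, against 8.09% of all 27025 genes in the promoter table. Of 12 core loop genes with an entry, 2 held an E-box. None of the 7 held either D-box spelling (0 genes), which occurs in 1.06% of promoters. The windows searched for Dbp and Rora contained none of these 4 elements.

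Libraries held 15601859 to 23200440 counts, so that 1 count equals 0.0431 to 0.0641 CPM, the usual depth-scaled count. Values below are CPM with library sizes adjusted by TMM, and differences are edgeR log2 fold changes of ko/ko over wt/wt with their standard error (SE). Flg had 0 to 6 counts in every library, too few to check the genotype labels. The sorted cells were labelled epidermal, but 2.82% to 6.04% of counts fell on 10 fibroblast markers and 0.140% to 0.339% on 10 markers of basal keratinocytes. Dcn, a fibroblast proteoglycan, stood at 10845 CPM or more in every library and Krt14, the basal keratin, at 1830 CPM or less. In such mixed libraries, fewer cells of a type and less RNA per cell cannot be told apart. Mitochondrial transcripts made up 2.77% to 7.55% of counts in wt/wt libraries, 6.30% in the library ko/ko replicate 1 and 1.81% to 2.01% in the remaining ko/ko libraries. Lymphatic endothelial markers (7 genes, none at 0) took 0.0382% to 0.0912% of counts in wt/wt, highest in replicates 1 and 2, and 0.0248% to 0.0324% in ko/ko. Myeloid markers took 0.00441% to 0.0111% in wt/wt, 0.0200% to 0.0361% in 3 ko/ko libraries and 0.00579% in the fourth, replicate 4. Of the 12 myeloid markers, Cd207 was at 0 in 4 libraries and C1qc in 1. Over 13 such measures of markers and quality none passed an exact two-sided permutation test after Benjamini-Hochberg adjustment (0 measures), with p = 0.0317 (adjusted 0.172) for the lymphatic and 0.0397 (adjusted 0.172) for the myeloid share. The smallest was that of 10 lymphoid markers, at 0.00794 (adjusted 0.103), the smallest p this design allows, but 0.0317 (adjusted 0.138) and overlapping with TMM-adjusted sizes. Of those markers 7 were at 0 in 2 to 4 libraries each, and the most abundant, Thy1 and Gata3, had 22.7 and 19.3 CPM in wt/wt against 28.1 and 21.1 CPM in ko/ko. The part of these shares in the differences below was not tested.

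The levels of the 8 genes, compared per kilobase of exon, spread over more than 2 orders of magnitude. Bhlhe40 was by far the most abundant, at 525 CPM per kb in wt/wt and 507 in ko/ko, and ranked 84 of the 18435 genes tested by this measure over the 9 libraries. Nfil3 followed at 47.8 and 40.5 CPM per kb in wt/wt and ko/ko, above Rora in every library. Bhlhe41, the paralog of Bhlhe40, was the lowest at 1.77 and 1.90 CPM per kb in wt/wt and ko/ko, ranking 11646 of the 18435 genes. Between these extremes the order was less firm. Rora exceeded Tef in 3 of 5 wt/wt libraries and in 4 of 4 ko/ko libraries. Tef exceeded Ciart in 4 of 5 wt/wt libraries and 4 of 4 ko/ko libraries, and Ciart exceeded Dbp in 4 of 5 and 2 of 4. Dbp lay above Hlf in 5 of 5 wt/wt libraries but in 2 of 4 ko/ko libraries. Hlf lay above Bhlhe41 in all 9 libraries.

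**Figure D1:**
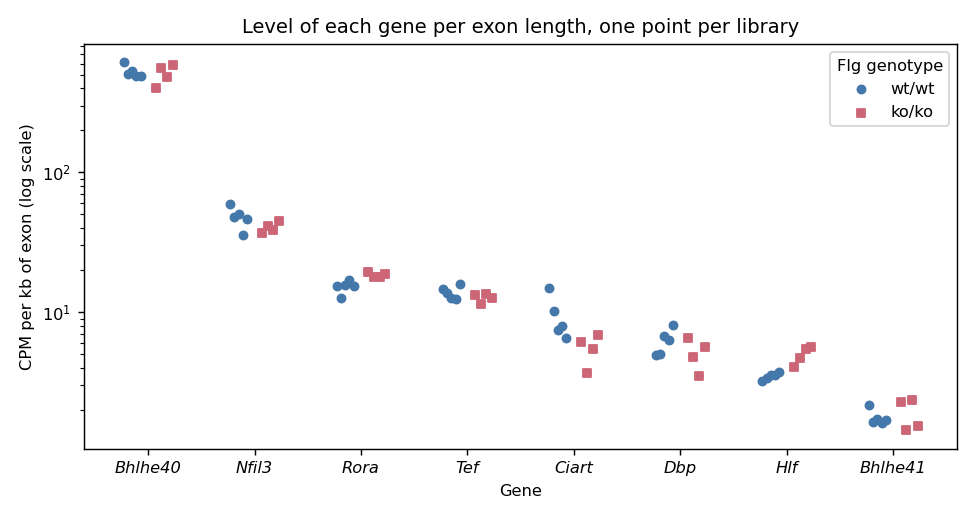
CPM per kb of exon (log axis) for the 8 genes, one point per library, circles for wt/wt and squares for ko/ko, in order of the mean. Bhlhe40 stands above 403 CPM per kb in every library, Nfil3 lies between 35.5 and 59.3, and the ranges of Ciart and Dbp overlap in both genotypes.

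None of the 8 genes passed edgeR's quasi-likelihood test after adjustment over all genes (0 genes), in a comparison that called 1 of 18435 genes, or 0.00542%. At an unadjusted p under 0.05 there were 3 of 8, Hlf and Rora with higher values in ko/ko and Ciart with lower values, against 15.3% of all genes. DESeq2 and limma voom with quality weights each called 1 of the 8, Hlf in both, against 3.03% and 9.77% of the genes they tested. By edgeR, values of ko/ko and wt/wt did not overlap for 2 of 8 genes, Hlf and Rora, against 6.25% of all genes. Both had higher values in ko/ko, as did 3.51% of all genes without overlap, and 0 of 8 lay wholly lower, against 2.74%. Fold changes were positive for 3 and negative for 5, with a median of -0.09 on the log2 scale, against -0.03 over all genes. Scaled by library totals alone the median of all genes was 0.08. The unadjusted count over all genes was then 2118 higher and 604 lower, against 1633 and 1183 with TMM.

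**Figure D2:**
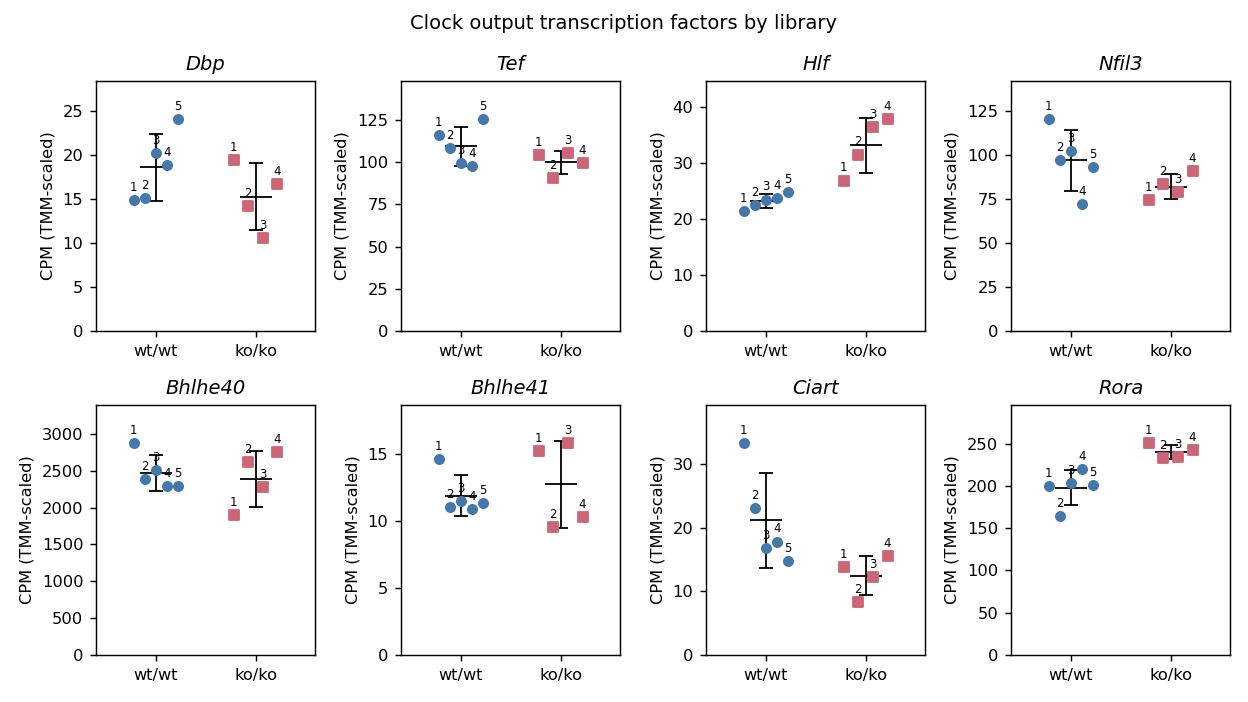
CPM of each gene in each library, numbered by replicate, circles for wt/wt (n = 5) and squares for ko/ko (n = 4). Black bars give mean and SD, and axes start at 0. The groups are apart for Hlf and Rora, and for Ciart only ko/ko replicate 4 reaches into the wt/wt range.

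Among the PAR bZIP activators, Hlf had the lowest level per kilobase in wt/wt, 3.49 CPM per kb, and the smallest p-value of the 8 genes. Hlf (ENSMUSG00000003949, mm10 chromosome 11, 90336536 to 90390895, minus strand) was at 21.6, 22.6, 23.5, 23.8 and 24.9 CPM in wt/wt replicates 1 to 5 and at 26.9, 31.6, 36.4 and 37.9 CPM in ko/ko replicates 1 to 4. Every ko/ko library lay above every wt/wt library, with ko/ko replicate 1 the nearest. The means were 33.2 ± 4.98 CPM (SD, n = 4) in ko/ko and 23.3 ± 1.26 CPM (SD, n = 5) in wt/wt. The log2 fold change was 0.51 (SE 0.14), or 1.43-fold, with an unadjusted p of 0.00403 and an edgeR adjusted p of 0.168. DESeq2 gave 0.51 (adjusted p = 0.0431) and weighted voom 0.57 (adjusted p = 0.0164). When one library at a time was left out the edgeR value ran from 0.44 to 0.60, with adjusted p from 0.127 to 0.335. The gene ranked 440 of 18435 by p-value.

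Dbp, the most strongly cycling of the activators in most mouse tissues, had overlapping groups. Dbp (ENSMUSG00000059824, chromosome 7, 45705088 to 45710203, plus strand) was at 14.9, 15.1, 20.2, 18.8 and 24.1 CPM in wt/wt replicates 1 to 5 and at 19.4, 14.2, 10.5 and 16.8 CPM in ko/ko replicates 1 to 4. The lowest value was that of ko/ko replicate 3 and the highest that of wt/wt replicate 5. The log2 fold change was -0.29 (SE 0.22, edgeR adjusted p = 0.548). Weighted voom gave -0.54 (adjusted p = 0.0808). Leaving out the 3 libraries with most reads of Gm10800, a predicted gene, gave -0.66 (edgeR adjusted p = 0.331). Without ko/ko replicate 3 it was -0.15 (adjusted p = 0.795). Exons of Sphk2 on the opposite strand overlap 539 of the 2993 exon bases of Dbp. Sphk2 itself had 109 to 227 counts per library. The sources used here do not say whether counting used strand, so reads in the overlap may be mixed or left uncounted.

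Tef was the most abundant of the 3 activators and differed least between genotypes. Tef (ENSMUSG00000022389, chromosome 15, 81802421 to 81826861, plus strand) was at 116, 108, 99.3, 97.8 and 125 CPM in wt/wt replicates 1 to 5 and at 104, 90.4, 105 and 99.4 CPM in ko/ko replicates 1 to 4. The groups overlapped between 97.8 and 105 CPM, and the difference on the log2 scale was -0.13 (SE 0.13, edgeR adjusted p = 0.652). With one library left out it ran from -0.17 to -0.077.

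Taken per kilobase, the 3 activators summed to similar levels in both genotypes while their proportions differed. The sum was 23.6 ± 2.31 CPM per kb (SD, n = 5) in wt/wt and 22.8 ± 1.36 CPM per kb (SD, n = 4) in ko/ko. Hlf contributed 13.5% to 16.0% of it in wt/wt libraries and 17.0% to 24.4% in ko/ko libraries, without overlap. Tef contributed 55.2% to 64.2% in wt/wt and 52.9% to 59.9% in ko/ko, and Dbp 21.7% to 29.4% and 15.7% to 27.4%. These proportions restate the values of the single genes and were not tested.

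The repressor of the D-box had overlapping groups. Nfil3 (ENSMUSG00000056749, chromosome 13, 52967209 to 52981073, minus strand) was at 120, 97.2, 102, 71.9 and 93.2 CPM in wt/wt replicates 1 to 5 and at 74.4, 83.7, 78.9 and 91.0 CPM in ko/ko replicates 1 to 4. The highest value was that of wt/wt replicate 1 and the lowest that of wt/wt replicate 4. Its fold change on the log2 scale was -0.24 (SE 0.16, edgeR adjusted p = 0.487). Without wt/wt replicate 1 it was -0.15 (edgeR adjusted p = 0.598), and without wt/wt replicate 4 it was -0.33 (unadjusted p = 0.0468, edgeR adjusted p = 0.447). The summed activators per kilobase amounted to 0.386 to 0.628 of the Nfil3 level in wt/wt libraries and 0.508 to 0.646 in ko/ko libraries. Activator transcripts were therefore fewer per kilobase than those of the repressor in all 9 libraries. This order rests on division by exon length, 7865 bases for Tef and 2026 for Nfil3. In plain CPM, Tef alone averaged 109 in wt/wt and 99.8 in ko/ko, above Nfil3 at 96.9 and 82.0.

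Both DEC repressors had overlapping groups, at levels far apart. Bhlhe40 (ENSMUSG00000030103, chromosome 6, 108660629 to 108666925, plus strand) was at 2877, 2383, 2506, 2296 and 2296 CPM in wt/wt replicates 1 to 5 and at 1896, 2617, 2274 and 2747 CPM in ko/ko replicates 1 to 4. Its log2 fold change was -0.05 (SE 0.16, edgeR adjusted p = 0.902), and its sign turned when library totals alone were used (0.043). Bhlhe41 (ENSMUSG00000030256, chromosome 6, 145858243 to 145865558, minus strand) was at 14.6, 11.1, 11.5, 10.9 and 11.4 CPM in wt/wt replicates 1 to 5 and at 15.2, 9.58, 15.9 and 10.3 CPM in ko/ko replicates 1 to 4. The ko/ko libraries fell into a higher and a lower pair for Bhlhe41, replicates 1 and 3 against 2 and 4. The higher pair lay above every wt/wt library and the lower pair beneath. Basal keratinocyte shares were 0.285% and 0.299% in the higher pair and 0.171% and 0.196% in the lower. In wt/wt the largest share, 0.339%, was in replicate 2, at 11.1 CPM of Bhlhe41. The part of cell mixture was not tested for Bhlhe41. The log2 fold change was 0.10 (SE 0.20, edgeR adjusted p = 0.845). Early response genes, a list of 13 that respond to tissue dissociation as Bhlhe40 and Nfil3 can, took 4.38% to 5.27% of counts in wt/wt and 4.29% to 4.62% in ko/ko (exact permutation p = 0.0952, adjusted p = 0.310). Relative to TMM-adjusted library sizes the same list stood at 4.49% to 5.60% in wt/wt and 4.15% to 4.42% in ko/ko, without overlap (exact permutation p = 0.0159, adjusted p = 0.138), and its part in the values of Bhlhe40 and Nfil3 was not tested. Exons of the predicted gene Gm43909 on the opposite strand overlap 1280 of the 6720 exon bases of Bhlhe41, but that gene had 5 counts or fewer in each library.

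Ciart had the largest fold change of the 8 genes and the widest spread within wt/wt. Ciart (ENSMUSG00000038550, chromosome 3, 95878503 to 95882251, minus strand), whose promoter with 3 E-boxes is printed above, was at 33.4, 23.2, 16.8, 17.9 and 14.8 CPM in wt/wt replicates 1 to 5 and at 13.8, 8.31, 12.3 and 15.6 CPM in ko/ko replicates 1 to 4. Only ko/ko replicate 4 exceeded any wt/wt library, replicate 5. The means were 12.5 ± 3.10 CPM (SD, n = 4) in ko/ko and 21.2 ± 7.49 CPM (SD, n = 5) in wt/wt, a coefficient of variation of 35.3% in wt/wt. The log2 fold change was -0.76 (SE 0.27), or 0.589-fold, with an unadjusted p of 0.0156 and an edgeR adjusted p of 0.234. DESeq2 gave an adjusted p of 0.114 and weighted voom gave -0.48 (adjusted p = 0.141). Without wt/wt replicate 1, the highest library, the edgeR value was -0.54 (adjusted p = 0.226). That library and wt/wt replicate 2, the next highest, were also the libraries with the largest lymphatic endothelial share, 0.0912% and 0.0877% of counts. The same pair had the lowest fibroblast shares, 3.32% and 2.82%. Within wt/wt it also had the highest basal keratinocyte shares, 0.195% and 0.339%. The part of cell mixture in the Ciart values was not tested. Ciart lies 2.58 Mb from Flg on the same chromosome.

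Rora did not overlap between genotypes, with a difference close to the median of genes as long as it is. Rora (ENSMUSG00000032238, chromosome 9, 68653786 to 69388246, plus strand) was at 200 CPM in wt/wt replicate 1 and 165, 204, 220 and 201 CPM in wt/wt replicates 2 to 5. In ko/ko replicates 1 to 4 it was at 251, 233, 234 and 243 CPM, each above the highest wt/wt library. The log2 fold change was 0.28 (SE 0.13), with an unadjusted p of 0.0499 and an edgeR adjusted p of 0.326. With 13071 exon bases Rora is the longest of the 8 genes. Over all tested genes the median log2 fold change was -0.07 for 8153 genes under 3 kb of exon, 0.13 for 4087 genes over 6 kb and 0.28 for 1188 genes over 10 kb. After removing from every library its trend with exon length, a setting chosen after seeing the data, Rora had -0.0083 (SE 0.17, edgeR adjusted p = 0.988). Hlf, with 6681 exon bases, then had 0.44 (SE 0.15, adjusted p = 0.226) and Ciart, with 2261, had -0.77 (SE 0.26, adjusted p = 0.228).

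**Figure D3:**
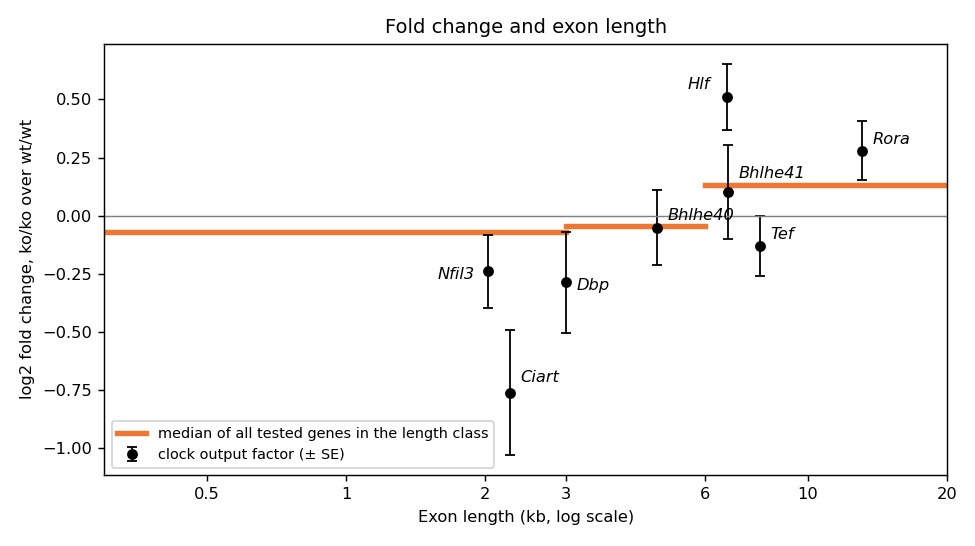
Log2 fold change of ko/ko over wt/wt (points, ± SE) against exon length in kb (log axis) for the 8 genes, with the median of all tested genes in 3 length classes as orange lines. Hlf (0.51) and Ciart (-0.76) stand apart from the medians of their classes, 0.13 and -0.07.

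**Figure D4:**
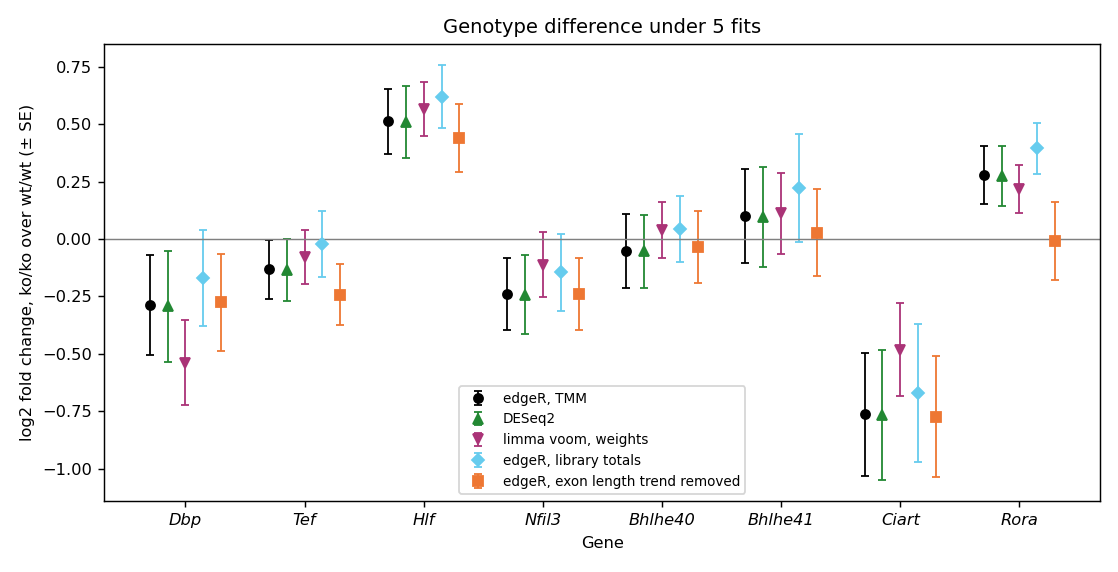
Log2 fold change of ko/ko over wt/wt (± SE) of the 8 genes under 5 fits, each with its own colour and marker. Hlf stays between 0.44 and 0.62 and Ciart between -0.77 and -0.48, Rora is near 0 with the exon length trend removed (-0.0083), and Bhlhe40 changes sign.

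Whether the outputs of the clock moved together between libraries was examined by relating Dbp to the other 7 genes and to Arntl, 8 relations in all, over the 9 libraries. None passed in an exact two-sided permutation test after Benjamini-Hochberg adjustment (0 relations). The strongest was with Arntl, with a Pearson r of -0.66 (exact permutation p = 0.0528, adjusted p = 0.422) and a Spearman rho of -0.53 (exact permutation p = 0.148, adjusted p = 1.0). Without the 2 libraries farthest from the Dbp median, wt/wt replicate 5 and ko/ko replicate 3, r was -0.22. With any one library left out it was -0.79 to -0.46. With genotype means subtracted it was -0.54. For Dbp and its paralogs Tef and Hlf, r was 0.27 (exact permutation p = 0.482) and -0.46 (exact permutation p = 0.211). For Hlf, r was -0.16 with genotype means subtracted and -0.60 to -0.15 with one library left out, weakest without ko/ko replicate 3. Each genotype has fewer than 6 libraries, so r was not computed within one. Ranked by r with Dbp after subtracting genotype means, the nearest of 18427 other tested genes were Gm7332 (0.97), Lage3 (0.96), Pfkl (0.96), Mapre3 (0.95) and Psma7 (0.95). Of the core loop and clock-controlled genes, Tspan4 came nearest with 0.86 (rank 93), followed by Nr1d1 with 0.65 (rank 973). These likenesses are descriptions over 9 libraries that differ in depth and cell mixture, and the part of either in them was not tested.

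The core loop that drives these genes showed values in both directions. As the labels give no time of day, a difference in collection time between the groups could not be told apart from genotype. Of 15 core loop genes, all tested, 0 passed after adjustment over all genes, and at an unadjusted p under 0.05 there were 3 with higher and 3 with lower values in ko/ko, against 8.86% and 6.42% of all genes. The median over the 15 was 0.09 on the log2 scale. In the positive arm, Arntl, Clock and Npas2 had higher means in ko/ko, with overlapping groups and short of the adjusted threshold. Arntl averaged 48.0 ± 16.6 CPM (SD, n = 5) for wt/wt and 76.8 ± 5.81 CPM (SD, n = 4) for ko/ko (edgeR adjusted p = 0.208). Clock averaged 29.8 ± 9.62 CPM (SD, n = 5) for wt/wt and 49.4 ± 6.85 CPM (SD, n = 4) for ko/ko (edgeR adjusted p = 0.207). The wt/wt replicate 1 library, at 75.4 CPM for Arntl and 41.7 CPM for Clock, lay within the ko/ko range for both. Npas2, a relative of Clock, averaged 8.59 ± 3.00 CPM (SD, n = 5) for wt/wt and 12.7 ± 5.69 CPM (SD, n = 4) for ko/ko (edgeR adjusted p = 0.444). The repressors Cry1 and Cry2 had the smallest p-values of the loop. Their log2 fold changes were -0.59 (SE 0.15, edgeR adjusted p = 0.146) and -0.90 (SE 0.20, edgeR adjusted p = 0.131). Of the 15 genes, these 2 lay wholly lower in ko/ko, against 2.74% of all genes, and 0 wholly higher, against 3.51%.

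The Period genes differed in sign among themselves. Per1 had 0.44 (SE 0.18, edgeR adjusted p = 0.280), Per2 had -0.69 (SE 0.29, edgeR adjusted p = 0.290) and Per3 had 0.31 (SE 0.30, edgeR adjusted p = 0.656). Per2 was at 67.9 and 57.6 CPM in wt/wt replicates 1 and 2 and at 28.9 to 33.1 CPM in wt/wt replicates 3 to 5, so the same pair of libraries was highest for Per2 as for Ciart. Within wt/wt that pair was also highest for Per3, at 49.4 and 48.2 CPM. It also had the lowest fibroblast shares, as given with Ciart. In ko/ko, Per2 ran from 19.4 to 33.3 CPM, with its lowest value in replicate 2, as for Ciart. The REV-ERB genes Nr1d1 and Nr1d2, repressors of Arntl and Nfil3, had -0.18 (SE 0.19, edgeR adjusted p = 0.698) and 0.25 (SE 0.18, edgeR adjusted p = 0.516).

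**Figure D5:**
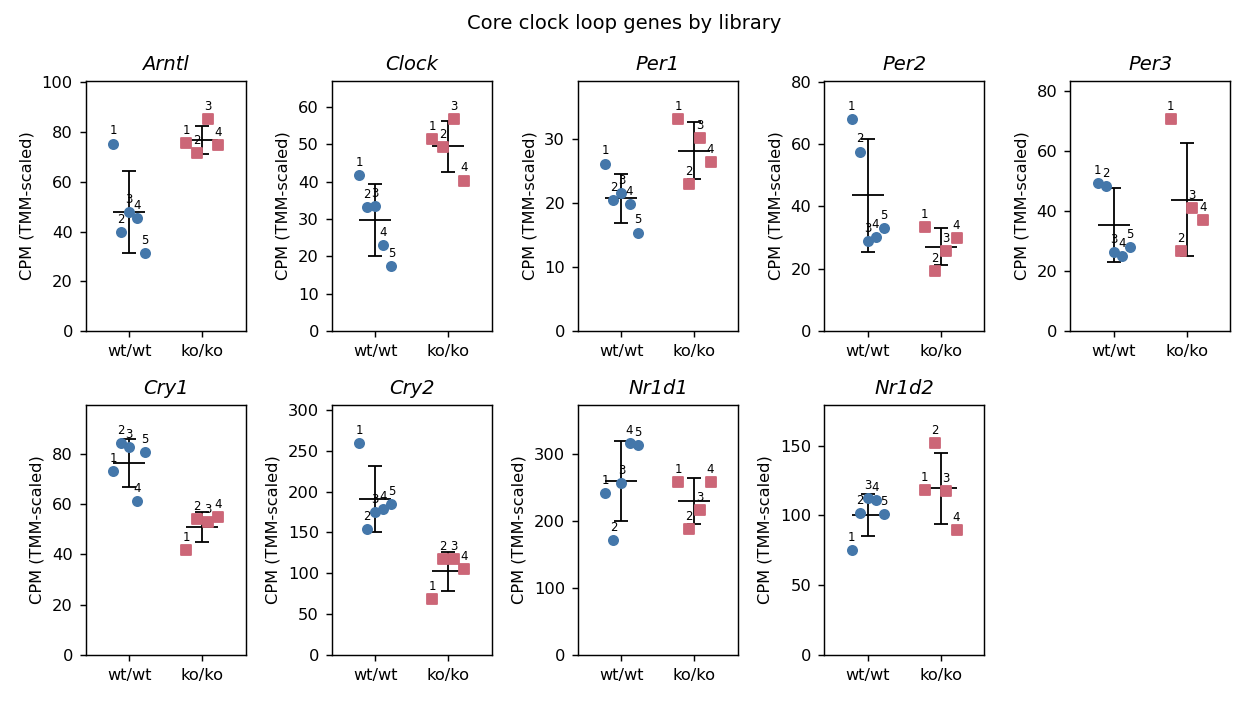
CPM of 9 core loop genes in each library, numbered by replicate, circles for wt/wt (n = 5) and squares for ko/ko (n = 4), with mean and SD in black and axes from 0. Cry1 and Cry2 lie wholly lower in ko/ko, as do 2.74% of all genes, and Per2 is high in wt/wt replicates 1 and 2 (67.9 and 57.6 CPM).

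Clock-controlled genes, and separately targets of the PAR bZIP factors, were counted against the same background. Of 10 clock-controlled genes, 0 passed after adjustment, against 0.00542% of all genes, and 1 had an unadjusted p under 0.05, against 15.3%. This was Klf9, a Krüppel-like factor that also responds to glucocorticoid, with means of 87.3 ± 14.3 CPM (SD, n = 5) for wt/wt and 157 ± 17.3 CPM (SD, n = 4) for ko/ko. Its difference was 0.85 on the log2 scale (SE 0.15, edgeR adjusted p = 0.0951). Of 8 genes known in mouse liver or brain as targets of the PAR bZIP factors, 5 were expressed enough to be tested. None of the 5 had an unadjusted p under 0.05 (0 genes), against the same 15.3%. Por, the electron donor of microsomal cytochromes P450, had the only negative value of the 5, -0.41 (SE 0.19, edgeR adjusted p = 0.347), and Alas1, of haem synthesis, had 0.05 (SE 0.15, edgeR adjusted p = 0.898).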

How the data were processed

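Raw read counts per gene were deposited by the authors, with a column for every sample. The submitters' processing notes name featureCounts 1.6.2, GSNAP and the mm10 build. Per the labels' protocols polyadenylated RNA was amplified over 13 cycles. Exon length is a column the authors deposited (other). How strand, multi-mapped reads and duplicates were treated is not given in the sources used here. From 49763 rows, 92 spike-in rows were left out. Symbols came from GENCODE M21, matching 49326 rows.

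The test on counts was that of edgeR 4.0.16 under R 4.3.3 (filterByExpr, TMM, glmQLFit robust=TRUE, two-sided quasi-likelihood F test, Benjamini-Hochberg over 18435 genes, threshold 0.05). Each SE is the size of the log2 fold change divided by the root of its F statistic. The script was tested on simulated data. Log2 CPM used a prior count of 2. Shares use library totals. The lowest chi-square per degree of freedom between libraries was 23.9, so each was counted as 1 replicate. Replicate numbers follow accession order. The labels name no molecular identifiers, and the SE and p-values of edgeR include the spread between libraries as well as counting error.

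A gene of the core loop list is not reported here. The 8 genes, the lists and the tests were chosen with earlier results of these data known. Named genes were the 8, related clock genes with an unadjusted p under 0.05 or fixed by name, and the 5 most like Dbp; Tspan4, Por and Alas1 were named after their values were seen. Alternatives were RLE factors, library totals, other filters, DESeq2 1.42.0, limma 3.58.1 voom with quality weights, robust=FALSE and left-out libraries, with the exon length trend (loess, span 0.3) added after seeing the data.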

Additional observations from a re-analysis of the deposited data

Results flagged for a closer look

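Of 42 sets of libraries examined for a single outlying value, 4 were found, where about 1 in 20 arises by chance (2.1 expected). In wt/wt replicate 1, Bhlhe41 stood at 14.6 CPM, while wt/wt replicates 2 to 5 ranged from 10.9 to 11.5 CPM. In wt/wt replicate 2, basal keratinocyte markers reached 0.339% of counts, and the remaining wt/wt libraries had 0.140% to 0.195%. In ko/ko replicate 1, mitochondrial transcripts reached 6.30% of counts, and ko/ko replicates 2 to 4 had 1.81% to 2.01%. The predicted genes Gm10800 and Gm10801 together reached 0.265% of counts in wt/wt replicate 1, and wt/wt replicates 2 to 5 had 0.000345% to 0.0332%. Outside the main measurement, the spike-in rows summed to 6 counts in wt/wt replicate 1 and to between 1 and 3 counts in each remaining library. The gene rows of wt/wt replicate 1 summed to 19321168 counts.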

How the results depend on the processing

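The genes called over the whole table numbered 1, and 4 with library totals alone, 28 with no filter on low counts, 680 with DESeq2, 1802 with weighted voom and 7 without the 3 libraries richest in Gm10800 reads. Leaving out one library at a time gave 0 to 12, with 12 without ko/ko replicate 4 and 0 without each other library. Of the 8 clock output genes, 0 were called in each edgeR setting, including the 9 that left out a library, and 1 was called with DESeq2 and 1 with weighted voom, Hlf in both. The cause of these differences was not tested.

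Hlf, Ciart, Dbp, Tef and Nfil3 kept their direction under all settings run. Bhlhe40 turned positive with library totals (0.043), weighted voom (0.040), the 3 libraries left out (0.044) and some single libraries left out (-0.13 to 0.043). Bhlhe41 ran from -0.024 to 0.21 with one library left out. Rora turned to -0.0083 with the exon length trend removed. The relation of Dbp to Nfil3 turned to -0.13 with library totals. With one library left out, r with Dbp ran from -0.21 to 0.42 for Tef, -0.24 to 0.22 for Nfil3, -0.51 to 0.14 for Bhlhe41, -0.14 to 0.31 for Ciart and -0.34 to 0.11 for Rora. The blood endothelial share differed by -0.0013 percentage points with TMM-adjusted sizes, against 0.0018. No paired analysis was possible because replicate numbers follow accession order and the labels pair no samples. Counts per library were 184 to 658 for Ciart, 205 to 339 for Bhlhe41 and 225 to 525 for Dbp. Their precision also rests on the spread between libraries. The coefficients of variation were 35.3%, 12.9% and 20.6% in wt/wt and 24.8%, 25.5% and 24.9% in ko/ko.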
